A study of Homo sapiens with 8 samples.

Results

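The transcripts of 10 genes that restrain immune cells were followed in HCT116 colorectal cancer cells and in a UHRF1-deficient clone of them, with and without knockdown of UHRF1. The genes were CD274, PDCD1LG2, CD276, VTCN1, LGALS9, TNFRSF14, CD47, IDO1, NT5E and PVR, taken by gene name from the expression tables as 10 of 19942 protein-coding genes. UHRF1 recognises hemimethylated DNA behind the replication fork and recruits the maintenance methyltransferase DNMT1, and the study asked how much UHRF1 a cancer cell needs to keep genes silenced by DNA methylation. HCT116 is an established human colorectal carcinoma line. UF1hypo cells are a single heterozygous clone of it, in which exon 4 of 1 UHRF1 allele was replaced by CRISPR-Cas9 recombination. Both lines were infected with lentivirus and selected with puromycin, so the controls carried the same agents as the knockdown cells. The 4 groups were HCT116 shScr and UF1hypo shScr, with a non-silencing hairpin, and HCT116 shUHRF1 and UF1hypo shUHRF1, with a hairpin against UHRF1. Each group had 2 libraries of polyA RNA, 8 in all, each from a stable pool of cells. The labels do not say whether the 2 libraries of a group came from separate infections, so the tests measure the spread between libraries, which may be technical.

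Immune checkpoints are pairs of a ligand and a receptor that dampen an immune response. Tumor cells display ligands of the B7 family, such as PD-L1, to T cells, nectin-like molecules and galectins to T cells and natural killer cells, and CD47, the "do not eat me" signal, to macrophages. Others act through metabolites: IDO1 consumes tryptophan and makes kynurenine, and NT5E (CD73) makes adenosine from AMP, both of which restrain T cells. Several of these genes are known targets of interferon signalling, through promoter motifs named the interferon-stimulated response element (ISRE) and the gamma-activated site (GAS).

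Expression was compared as TPM, a level per transcript length that sums to the same total in each library. The aligned bases recovered from the tables ranged from 5.42 to 7.84 gigabases per library, but the tables give no read counts. The reads behind a low value are therefore unknown, and a gene without signal is called listed at 0. Replicates correlated with a Pearson's r of 0.991 to 0.992 across genes in 3 groups and 0.956 in UF1hypo shUHRF1. In that group the difference between the libraries, replicate 2 minus replicate 1, had a Spearman's rho of -0.799 with transcript GC content across genes, which are not independent replicates. The same rho was 0.498 in UF1hypo shScr, the control of that knockdown, against 0.0419 and 0.0669 in the HCT116 groups. Changes of the checkpoint genes on knockdown in UF1hypo are therefore given without each UF1hypo shUHRF1 library too. Transcripts of UHRF1, the targeted gene, averaged 93.0 ± 7.73 TPM (SD, n = 2, as for every group mean here) in control HCT116 cells and 32.2 ± 0.718 after knockdown, and 48.9 ± 2.37 in control UF1hypo cells and 27.6 ± 9.14 after knockdown. These are log2 differences of -1.50 for HCT116 and -0.84 for UF1hypo, with adjusted p-values of 0.0564 and 0.0406 (limma, Benjamini-Hochberg). Neither met both thresholds for a call given below. The UF1hypo difference was -1.17 without UF1hypo shUHRF1 replicate 1 and -0.51 without replicate 2. All of these are RNA levels. By Western blot the paper reported much less UHRF1 protein in UF1hypo than in HCT116 cells, and a further sharp loss with the hairpin. Of 8 colon epithelial markers, 6 exceeded 1 TPM in both libraries of every group, while VIL1 and CDH17, which mark differentiated intestinal epithelium, stayed at or below 0.148 TPM. The summed level of 14 leukocyte markers was 10.2 to 16.5 TPM in the HCT116 libraries, 42.8 to 46.9 in UF1hypo shScr and 95.1 to 124 in UF1hypo shUHRF1. Most of it was CD68, a lysosomal protein, and without CD68 the sums were 2.17 to 4.22 TPM in the 6 other libraries and 17.4 to 17.6 in UF1hypo shUHRF1. PTPRC, the defining leukocyte marker CD45, was listed at 0 in 6 libraries and at 0.0561 and 0.0728 TPM in UF1hypo shUHRF1, and CD2 and FCGR3A were listed at 0 throughout. Other markers of the list moved with the knockdown in UF1hypo: of 5 tested, 3 were called higher, CD3D at a log2 fold change of 2.12, CD52 at 2.50 and CD68 at 1.11 (limma). Of all 13620 genes tested there, 7.39% were called higher. CD3D exceeded 1 TPM only in UF1hypo shUHRF1, so its test already required a difference. Without UF1hypo shUHRF1 replicate 1 the log2 fold change of CD68 was 0.88, under the fold threshold given below. CD52 stood at 0 and 1.86 TPM in UF1hypo shScr and at 6.77 and 10.8 TPM in UF1hypo shUHRF1, and at 0 to 1.64 TPM in the HCT116 libraries. The part of other cell types in the results below was not tested. The summed level of 10 fibroblast and endothelial markers was 21.5 to 29.1 TPM in the other groups and 38.7 to 66.9 in UF1hypo shUHRF1. Most of it was COL1A1, at 21.1 to 28.5 TPM in the other groups and 65.5 and 37.7 in UF1hypo shUHRF1. Its log2 fold change there of 0.94 was not called, and every other marker of this list stayed at or below 0.728 TPM.

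The promoters of 3 genes are shown because their transcripts rose after knockdown in UF1hypo cells. Each window runs 5′ to 3′ on the plus strand of GRCh38.p14, from 250 bases before the RefSeq start to 20 bases after it, and capitals mark matches on either strand to an ISRE motif, written as GAAA, 2 free bases and GAAA, or to a GAS motif, written as TTC, 3 free bases and GAA.
CD274 promoter (chr9:5450292-5450561): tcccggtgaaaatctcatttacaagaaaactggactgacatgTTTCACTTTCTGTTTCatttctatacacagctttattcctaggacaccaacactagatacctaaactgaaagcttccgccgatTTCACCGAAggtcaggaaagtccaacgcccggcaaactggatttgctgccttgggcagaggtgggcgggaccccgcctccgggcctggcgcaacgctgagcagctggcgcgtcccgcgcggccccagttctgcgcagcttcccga
LGALS9 promoter (chr17:27630938-27631207): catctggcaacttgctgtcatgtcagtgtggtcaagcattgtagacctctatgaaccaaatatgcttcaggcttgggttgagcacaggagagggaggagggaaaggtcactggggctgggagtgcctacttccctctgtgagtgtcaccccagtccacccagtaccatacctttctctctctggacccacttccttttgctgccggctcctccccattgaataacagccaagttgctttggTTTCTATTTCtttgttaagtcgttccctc
TNFRSF14 promoter (chr1:2556121-2556390): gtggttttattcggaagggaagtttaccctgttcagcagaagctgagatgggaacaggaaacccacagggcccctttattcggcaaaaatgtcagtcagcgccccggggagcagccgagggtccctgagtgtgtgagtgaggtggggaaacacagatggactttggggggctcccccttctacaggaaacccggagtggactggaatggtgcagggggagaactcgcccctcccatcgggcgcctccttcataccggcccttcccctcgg

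The CD274 window held 2 ISRE matches, TTTCACTTTC beginning 208 bases before the start and TTTCTGTTTC beginning 202 bases before it, which share 4 of their bases, and 1 GAS match, TTCACCGAA, beginning 125 bases before the start. The LGALS9 window held 1 ISRE match, TTTCTATTTC, which began 9 bases before the start and ended on the first transcribed base. The TNFRSF14 window held neither motif, and neither did the windows of CD276, VTCN1, CD47, NT5E and PVR. For comparison, 3.30% of 35114 windows in the table held an ISRE match and 7.05% a GAS match. The windows also differed in CpG dinucleotides, the sites of DNA methylation. LGALS9 had 2, and 13.0% of windows had fewer, VTCN1 had 6, TNFRSF14 had 11 and CD274 had 18. The windows of PVR, NT5E and CD47 held 27, 32 and 39, and the 2 windows of CD276 held 32 and 25, against a median of 12 over all windows. PDCD1LG2 and IDO1 had no entry in the table.

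In the control cells the repertoire was carried by 4 genes. CD276 (B7-H3, an inhibitory B7 family ligand) stood at 68.9 and 70.6 TPM in HCT116 shScr and was the highest of the 10 in every group by its mean. NT5E stood at 65.9 and 62.3 TPM, PVR (CD155, the ligand of TIGIT and CD226 on T and natural killer cells) at 60.8 and 60.2, and CD47 at 21.1 and 22.2. These 4 levels did not overlap between neighbours in the order CD276, NT5E, PVR, CD47. The next was CD274 (PD-L1, the ligand of the T cell receptor PD-1) at 1.40 and 1.53 TPM, followed by LGALS9 (galectin-9, a secreted lectin that binds TIM-3) at 1.04 and 0.789. TNFRSF14 (HVEM, the ligand of BTLA and CD160) was near the bottom at 0.0695 and 0.0588 TPM. PDCD1LG2 (PD-L2, the other PD-1 ligand), VTCN1 (B7-H4, another inhibitory B7 ligand) and IDO1 were listed at 0 in both libraries. IDO1 was listed at 0 in all 8 libraries. CD276, NT5E, PVR and CD47 together held 98.3% to 98.9% of the summed TPM of the 10 genes in the 4 HCT116 libraries, 96.1% and 95.03% in control UF1hypo cells, and 77.4% and 78.5% after their knockdown. The sum itself was 154 to 219 TPM in the other groups and 329 and 308 TPM in UF1hypo shUHRF1. There LGALS9, at 53.5 ± 8.91 TPM, was the next by its mean after CD276 at 92.1 ± 21.1 and PVR at 86.8 ± 13.8, whereas in HCT116 shScr it had ranked below CD274. Its libraries overlapped in range with those of NT5E, as those of CD276 did with PVR and those of CD47 with TNFRSF14, so the order of these neighbours was not separated by the spread.

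Knockdown of UHRF1 in UF1hypo cells raised 3 of the checkpoint genes, TNFRSF14, LGALS9 and CD274. Of the 10, 7 exceeded 1 TPM in at least 1 library of the comparison and were tested. The threshold for a call was an adjusted p (limma on log2(TPM + 1), Benjamini-Hochberg over all tested genes) below 0.05 together with a log2 fold change beyond 1 in size. Of the 7, 3 were called higher, 0 lower and 4 were not called, where 7.39% of all 13620 tested genes were called higher, 1.14% lower and 8.53% in either direction. Without UF1hypo shUHRF1 replicate 2 the log2 fold change of CD274 was 0.89, under the fold threshold. The median log2 fold change of the 7 was 0.68, against 0.04 over all tested genes. In 4 of the 7 both knockdown libraries lay above both control libraries, which held for 30.6% of all tested genes, and in 3 the groups overlapped. TNFRSF14 passed the filter on low values through UF1hypo shUHRF1 alone, so its inclusion already required a difference.

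TNFRSF14 (ENSG00000157873.18, chromosome 1, 2555639 to 2565382 in GRCh38, plus strand) stood at 0.213 and 0.645 TPM in UF1hypo shScr and at 10.7 TPM in replicate 1 and 11.51 TPM in replicate 2 of UF1hypo shUHRF1. The groups did not overlap, and the 6 libraries of the other groups all lay at or below 0.645 TPM. The ratio of the mean TPM was 25.9, and the log2 fold change of TPM + 1 was 3.10 ± 0.245 (SE), with an adjusted p of 0.000126 (limma, Benjamini-Hochberg). It was 3.15 without UF1hypo shUHRF1 replicate 1 and 3.05 without replicate 2. The antisense transcript TNFRSF14-AS1, which overlaps the gene, was listed at 0 to 0.145 TPM in the other groups and at 1.63 and 0.320 TPM in UF1hypo shUHRF1. The counting is not stated to use strand, so reads of the 2 cannot be told apart. Its protein-coding neighbour PRXL2B, on the same strand, had a log2 fold change of -0.05 and was not called.

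LGALS9 (ENSG00000168961.17, chromosome 17, 27629798 to 27649560, plus strand) rose from 5.71 and 8.52 TPM in UF1hypo shScr to 59.8 and 47.2 TPM in UF1hypo shUHRF1, the libraries of which lay far above every other. The ratio of means was 7.52 and the log2 fold change 2.76 ± 0.377 (SE), with an adjusted p of 0.00234 (limma, Benjamini-Hochberg). It was 2.59 without UF1hypo shUHRF1 replicate 1 and 2.93 without replicate 2. LGALS9B and LGALS9C, near-identical copies of the gene, were listed at 0 in all libraries, so reads of the copies could have been assigned to LGALS9. KSR1, its neighbour on the same strand, had a log2 fold change of 0.39 and was not called.

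CD274 (ENSG00000120217.14, chromosome 9, 5450503 to 5470566, plus strand) stood at 1.48 and 1.12 TPM in UF1hypo shScr and at 3.26 and 6.56 TPM in UF1hypo shUHRF1. Both knockdown libraries were higher than the controls, but replicate 2 was well above replicate 1. Here and below, more cells with the transcript and more transcript per cell cannot be told apart in bulk RNA. The ratio of means was 3.77 and the log2 fold change 1.31 ± 0.288 (SE; 95% confidence interval 0.65 to 1.96), with an adjusted p of 0.0206 (limma, Benjamini-Hochberg). The call depended on single libraries: without UF1hypo shUHRF1 replicate 2 the log2 fold change was 0.89, under the fold threshold, and without UF1hypo shScr replicate 1 or 2 the adjusted p was 0.0871 or 0.128. Without UF1hypo shUHRF1 replicate 1 the log2 fold change was 1.72. The call was also lost when the 4 libraries were fitted alone, with an adjusted p of 0.12 (limma). With FPKM in place of TPM it was lost at a log2 fold change of 0.94. CD274 has a low transcript GC content of 40.7%, against a median of 49.6% over expressed genes, and was lower in the library with more signal in GC-rich transcripts. With the median of each library removed within bins of GC content the log2 fold change was 1.46 and was called.

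PDCD1LG2 lies next to CD274 on chromosome 9, with 39965 bases between them. It was listed at 0 in 6 libraries and at 0.0542 and 0.585 TPM in UF1hypo shUHRF1, under the level needed for a test. The lncRNA ENSG00000286162 runs antisense over both genes and stood at 0.0822 to 1.84 TPM with no separation between groups, and reads from it cannot be told apart from those of CD274 without strand. The outer neighbours of the pair, PLGRKT and RIC1, had log2 fold changes of -0.54 and 0.01 and were not called. VTCN1 stood at 0.260 and 0.209 TPM in UF1hypo shScr and at 0.364 and 0.384 TPM in UF1hypo shUHRF1, against 0 in the 4 HCT116 libraries. It was present in UF1hypo cells irrespective of the hairpin, at levels too low for a test.

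PVR rose from 55.0 and 52.0 TPM to 96.6 and 77.0 TPM, a ratio of means of 1.62. The groups did not overlap, and its log2 fold change of 0.68 ± 0.160 (SE; 95% interval 0.31 to 1.05) had an adjusted p of 0.0268 (limma, Benjamini-Hochberg) but did not reach the fold threshold. It was 0.52 without UF1hypo shUHRF1 replicate 1 and 0.84 without replicate 2. PVR shares bases with CEACAM19 on the same strand, which stood at 4.44 to 10.1 TPM in the 8 libraries. The other 3 genes overlapped between the groups. CD276 stood at 61.1 and 82.8 TPM in UF1hypo shScr and at 107 and 77.2 TPM in UF1hypo shUHRF1, a log2 fold change of 0.35 (95% interval -0.12 to 0.82). NT5E stood at 47.8 and 44.5 TPM against 39.7 and 64.3, a log2 fold change of 0.13 (interval -0.42 to 0.68). CD47 stood at 24.4 and 21.5 TPM against 11.3 and 23.6, a log2 fold change of -0.46 (interval -1.14 to 0.22). The intervals of CD276 and NT5E lay within 1 log2 unit of 0, while that of CD47 included a log2 fold change of -1. These 3 genes also divided the 2 knockdown libraries by GC content: CD276, with a transcript GC content of 60.0%, was higher in replicate 1, and NT5E and CD47, at 45.2% and 38.4%, were higher in replicate 2. The estimates of all 3 depended on which library was kept. Without replicate 1 the log2 fold change was 0.12 for CD276, 0.47 for NT5E and 0.04 for CD47. Without replicate 2 it was 0.58 for CD276, -0.21 for NT5E and -0.96 for CD47, all under the fold threshold in size. Within bins of GC content it was 0.06 for CD276.

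Knockdown of UHRF1 in HCT116 cells gave no call among the checkpoint genes. Of the 6 tested, 0 were called, where 0.0708% of all 12704 tested genes, 9 in number, were called and 810 had an unadjusted p below 0.05 (limma). In 5 of the 6 both knockdown libraries lay below both control libraries, which held for 29.3% of all tested genes, and the median log2 fold change of the 6 was -0.19, against -0.03 over all tested genes. The largest difference was in NT5E (ENSG00000135318.12, chromosome 6, 85449584 to 85495791, plus strand), which stood at 65.9 and 62.3 TPM in HCT116 shScr and at 26.7 and 20.6 TPM in HCT116 shUHRF1. The groups did not overlap, and the mean was 2.71-fold lower. The log2 fold change of -1.41 ± 0.238 (SE; 95% interval -1.95 to -0.87) had an adjusted p of 0.0979 (limma, Benjamini-Hochberg) and was not called. NT5E was called when the 4 HCT116 libraries were fitted alone, with an adjusted p of 0.000283 (limma). It was also called in the fit within bins of GC content, with an adjusted p of 0.00268 (limma). The joint fit took its spread from all libraries. The median absolute log2 difference between replicates was 0.453 in UF1hypo shUHRF1, against 0.117 in HCT116 shScr and 0.158 in HCT116 shUHRF1. With the 4 libraries of each knockdown alone, the SE of NT5E in HCT116 was 0.133. HCT116 then had 89 calls in place of 9, and UF1hypo 563 in place of 1162. The calls of the 2 knockdowns therefore depend on the shared spread.

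The other 5 had smaller differences. CD47 stood at 16.9 and 17.6 TPM in HCT116 shUHRF1, a log2 fold change of -0.31, PVR at 53.8 and 51.0 TPM, a change of -0.20, and CD276 at 66.3 and 62.3 TPM, a change of -0.12. CD274 stood at 1.39 and 0.977 TPM, with a log2 fold change of -0.18 (95% interval -0.86 to 0.50), and LGALS9 at 0.170 and 1.66 TPM, with a change of -0.11 (interval -0.96 to 0.73). For CD274 and LGALS9 the intervals left out the log2 fold changes estimated in UF1hypo cells. TNFRSF14 stood at 0.396 and 0 TPM and was not tested. PDCD1LG2 and VTCN1 stayed listed at 0.

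**Figure D1:**
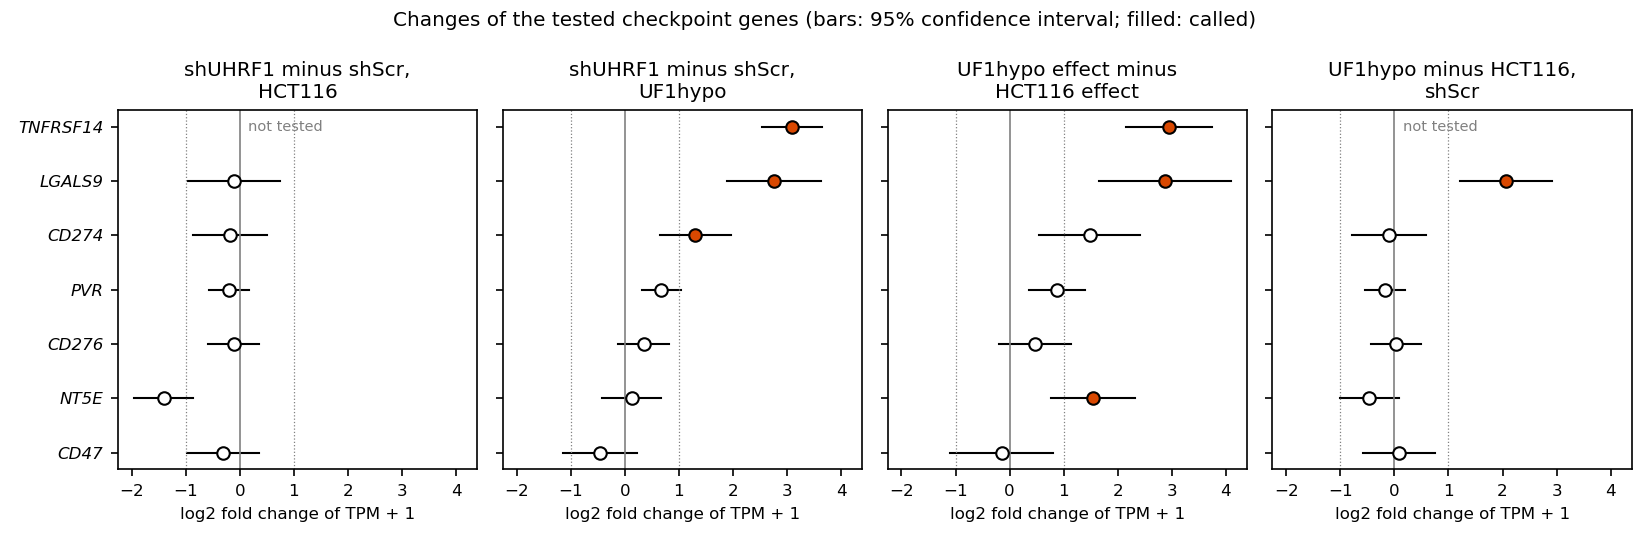
Log2 fold change of TPM + 1 on the horizontal axis for the checkpoint genes with a test, in 4 panels for the 4 comparisons, with 95% confidence intervals as bars, filled points for called genes and dotted lines at the fold threshold. TNFRSF14, LGALS9 and CD274 were called in the UF1hypo knockdown and 0 genes in the HCT116 knockdown, where NT5E had a log2 fold change of -1.41.

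Whether the knockdown acted differently in the 2 backgrounds was tested as the log2 fold change in UF1hypo minus that in HCT116. Of the 7 tested checkpoint genes 3 were called higher and 0 lower, where 4.54% of all 13781 tested genes were called higher, 0.559% lower and 5.09% in either direction. The 3 were TNFRSF14, LGALS9 and NT5E. Here too TNFRSF14 passed the filter on low values through UF1hypo shUHRF1 alone, so its inclusion already required a difference. For TNFRSF14 the difference was 2.95 ± 0.346 (SE) with an adjusted p of 0.00278, for LGALS9 it was 2.88 ± 0.532 with an adjusted p of 0.0196, and for NT5E it was 1.54 ± 0.338 with an adjusted p of 0.039 (limma, Benjamini-Hochberg). The sources of the 3 differed: TNFRSF14 and LGALS9 rose in UF1hypo cells, while NT5E was lower after knockdown in HCT116 and had overlapping groups in UF1hypo. The 3 remained called with either UF1hypo shUHRF1 library left out, but NT5E lost its call in 10 of 15 alternative settings, with adjusted p-values of up to 0.188, LGALS9 in 5 and TNFRSF14 in 1. CD274, at 1.49 (95% interval 0.55 to 2.42), and PVR, at 0.88 (0.37 to 1.40), had adjusted p-values of 0.0843 and 0.0674 and were not called. The difference for CD274 was 1.90 without UF1hypo shUHRF1 replicate 1 and 1.07 without replicate 2. Within bins of GC content CD274 was called at 1.57, with an adjusted p of 0.00469 (limma, Benjamini-Hochberg). For PVR the difference was 1.05 without replicate 2. The difference was 0.46 for CD276 and -0.15 for CD47.

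The clone was then compared with its parent under the control hairpin. Of 6 tested genes 1 was called higher and 0 lower, where 2.59% of all 12856 tested genes were called higher, 0.949% lower and 3.54% in either direction. The called gene was LGALS9, at 1.04 and 0.789 TPM in HCT116 shScr and 5.71 and 8.52 TPM in UF1hypo shScr, a ratio of means of 7.79. Its log2 fold change of 2.07 ± 0.373 (SE) had an adjusted p of 0.0161 (limma, Benjamini-Hochberg). The call was lost in 6 of 12 alternative settings, among them each of the 4 that left out a library, where the log2 fold change was 1.81 to 2.32 and the adjusted p 0.0565 to 0.152. In TPM, LGALS9 was higher in both UF1hypo shScr libraries than in both HCT116 shScr libraries, and higher still in UF1hypo shUHRF1. In 1 of the 6 genes both UF1hypo libraries lay above both HCT116 libraries, against 29.1% of all tested genes, and in 2, NT5E and PVR, below them, against 37.2%. NT5E was at 47.8 and 44.5 TPM against 65.9 and 62.3, a log2 fold change of -0.46 (95% interval -1.01 to 0.08), and PVR had a change of -0.17. CD274, CD276 and CD47 overlapped between the lines, with log2 fold changes of -0.10, 0.03 and 0.08. UF1hypo is 1 clone, so the heterozygous allele and other differences of the clone cannot be told apart. This comparison and the knockdown in UF1hypo share the UF1hypo shScr libraries.

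The partners of the checkpoint genes were described in 10 lists of 106 genes, which cover related ligands, receptors, enzymes and upstream regulators. After knockdown in UF1hypo 72 of them were tested, of which 8 were called higher and 1 lower, or 12.5%, against the 8.53% of all genes given above. Fits without a UF1hypo shUHRF1 library keep a single library in that group, which adds nothing to the spread. Their counts and calls are therefore not set against this share. Among the 8 called higher, PDCD1 and QPRT passed the filter on low values through UF1hypo shUHRF1 alone. VSIR, PDCD1, THBS1, DPP4, QPRT, STAT2, IRF9 and SOCS1 are described next. Their log2 fold changes kept their direction and stayed beyond 1 in size with either UF1hypo shUHRF1 library left out. After knockdown in HCT116 0 of 68 were called, against 0.0708% of all tested genes. The same shares of all genes, 8.53% in UF1hypo and 0.0708% in HCT116, apply to the knockdown counts of each list below.

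Among the B7 and butyrophilin-like ligands 8 of 13 were tested and 1 was called in UF1hypo. It was VSIR (VISTA, an inhibitory B7 family molecule), which stood at 3.59 and 3.62 TPM in control HCT116 cells and 3.65 and 3.21 after knockdown, and at 9.28 and 9.22 in control UF1hypo cells and 26.9 and 24.8 after knockdown. Its 2 steps did not overlap, with a log2 fold change of 1.154 between the lines and 1.39 on knockdown in UF1hypo, both called. BTN3A3, a butyrophilin related to the phosphoantigen sensor of gamma delta T cells, was called between the lines at 1.80 and not on knockdown. Among the 9 nectins and their receptors 5 were tested on knockdown in UF1hypo and 0 were called. Without UF1hypo shUHRF1 replicate 1 the receptor gene PVRIG had a log2 fold change of 1.47. PVRIG passed the filter on low values through replicate 2 of that group alone, at 1.77 TPM, so its value there already required a difference. Without replicate 2 the log2 fold change was 1.03 for NECTIN2 and -1.31 for NECTIN3. Between the lines NECTIN4 was higher by 2.00 and NECTIN3, an adhesion partner of PVR, lower at -1.46. The only 1 of the 12 receptors called on knockdown in UF1hypo was PDCD1, which encodes PD-1, the receptor of CD274. It stood at 0 to 0.244 TPM in the HCT116 libraries, 0.720 and 0.878 TPM in UF1hypo shScr, and 25.2 and 20.7 TPM in UF1hypo shUHRF1, a log2 fold change of 3.73. PDCD1, like TNFRSF14, passed the filter through UF1hypo shUHRF1 alone, and 9 of the 12 genes of its list were too low for a test. CD3D, another T cell gene, stood at 5.05 and 2.99 TPM in UF1hypo shUHRF1 and at most 0.349 TPM in the other libraries, and like PDCD1 it passed the filter through that group alone.

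Of the 13 galectins and galectin partners, 7 were tested and CEACAM1, a ligand of TIM-3 like galectin-9, was called on knockdown in UF1hypo at 1.03, but not without UF1hypo shUHRF1 replicate 2, at 0.80. It was also higher between the lines at 1.08, as was the galectin-binding glycoprotein LGALS3BP at 1.70. In the axis of TNFRSF14 with its ligands LIGHT and lymphotoxin and its receptor BTLA, 2 of 6 genes were tested and 0 were called in any comparison. In the CD47 axis 1 of 4 tested genes was called on knockdown in UF1hypo. It was the CD47 ligand thrombospondin-1, THBS1, which rose from 3.20 and 2.25 TPM to 19.0 and 15.5 TPM, a log2 fold change of 2.30, and differed between the backgrounds by 2.38.

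In the metabolic lists NT5E and IDO1 had different surroundings. In the adenosine axis 1 of 11 tested genes was called, and it was lower: DPP4 (CD26, a peptidase that anchors adenosine deaminase) fell from 7.97 and 8.05 TPM to 0.597 and 0.879 TPM, a log2 fold change of -2.38, and ENTPD2, which hydrolyses extracellular ATP, was higher between the lines by 1.32. In the kynurenine axis 1 of 9 was called, QPRT, which turns the end product of the pathway into a precursor of NAD. It rose from 0.340 and 0.383 TPM to 14.7 and 14.2 TPM, a log2 fold change of 3.50, having passed the filter through UF1hypo shUHRF1 alone, while IDO1 and IDO2 were listed at 0. The amino acid carrier SLC7A5 and its partner SLC3A2, which bring tryptophan into the cell, differed between the backgrounds by 1.62 and 1.43. SLC7A5 stood at 806 and 748 TPM in control HCT116 cells and 445 and 399 after knockdown, and at 330 and 357 in control UF1hypo cells and 668 and 493 after knockdown, so that the knockdown libraries lay below the controls in HCT116 and above them in UF1hypo. Neither knockdown alone was called for this pair.

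All 15 genes of the interferon pathway to PD-L1 were tested. On knockdown in UF1hypo 3 were called higher and 0 lower, STAT2 at 1.18, IRF9 at 1.73 and SOCS1, a feedback inhibitor of JAK kinases, at 1.34, and the list median was 0.45 against 0.04 over all genes. Between the lines STAT2 was called higher at 1.08 and IRF9 at 2.78. IRF9 stood at 3.46 and 4.07 TPM in control HCT116 cells and 5.71 and 4.85 after knockdown, and at 30.9 and 32.5 in control UF1hypo cells and 109 and 106 after knockdown, and like LGALS9 and VSIR it was called in both comparisons. Of 9 regulators of PD-L1 protein turnover 0 were called in either knockdown, with a median of -0.16 in UF1hypo. In UF1hypo CDK5 was called at -1.02 without UF1hypo shUHRF1 replicate 1, and CMTM6, which keeps PD-L1 at the cell surface, at -1.32 and HIP1R, which sends PD-L1 to the lysosome, at 1.16 without replicate 2. HIP1R differed between the backgrounds by 1.17, and by 0.91, under the fold threshold, without replicate 1. The genes called only after a library was left out were named after their values were seen, and not all of them are named. On knockdown in UF1hypo without UF1hypo shUHRF1 replicate 2, LGALS3BP stood at 1.25, ENPP1 at -1.14 and TYK2 at 1.06.

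The genes whose levels ran most closely with each called checkpoint gene were found by Pearson's r of log2(TPM + 1) over the 8 libraries among 3059 variable genes. These are descriptions, since the libraries fall into 4 groups and differ in GC profile and depth. Each gene named was picked for its r, so a shared order of groups is part of that choice. Closest to LGALS9 were HLA-F, a nonclassical MHC class I gene, at 0.9902, DHX58, an RNA sensor of the RIG-I family, at 0.988, and NLRC5, the transactivator of MHC class I genes, at 0.988. DHX58 stood at 2.04 and 1.06 TPM in HCT116 shScr, 8.32 and 7.71 in control UF1hypo cells and 113 and 86.4 after their knockdown, the same order of groups as LGALS9. Closest to TNFRSF14 were the keratin gene KRT6B at 0.996, the histone gene H2BC18 at 0.996 and the cancer-testis gene MAGEA1 at 0.995. MAGEA1 was listed at 0 to 1.14 TPM in 6 libraries and at 99.1 and 97.2 TPM in UF1hypo shUHRF1. Closest to CD274 were SLC16A4, SMIM21 and MMP20 at 0.981 to 0.982. Each was higher in UF1hypo shUHRF1 replicate 2 than in replicate 1, as CD274 was. SLC16A4, SMIM21, MMP20, KRT6B and H2BC18 exceeded 1 TPM only in UF1hypo shUHRF1. They thus entered the 3059 genes only through the group where CD274 and TNFRSF14 were highest, which already favours a high r. Closest to NT5E were the proteasome subunit gene PSMB7 at 0.906, the neuropilin gene NRP1 at 0.899 and ACAA2, an enzyme of fatty acid oxidation, at 0.891. PSMB7 stood at 379 and 390 TPM in HCT116 shScr and at 190 and 166 TPM in HCT116 shUHRF1, and at 360 to 451 TPM in the 4 UF1hypo libraries. Among the checkpoint genes themselves r was 0.910 between LGALS9 and TNFRSF14, 0.915 between TNFRSF14 and CD274, 0.782 between LGALS9 and CD274, while NT5E had an r of 0.424 with CD274 and 0.254 with LGALS9.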

How the data were processed

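PolyA RNA of 8 HCT116 and UF1hypo libraries was sequenced in paired ends. Reads were trimmed with Fastp, aligned to GRCh38 with HISAT2 2.0.4 and quantified with StringTie 2.1.4 by the authors. The deposited TPM values are StringTie levels per gene length, scaled to the same total in each library. The deposited FPKM values are scaled for length and aligned reads, and the deposited coverage is the unscaled mean signal per base. Both served as alternatives, and their ratio gave the aligned bases of a library. Values of a gene identifier were summed, and 19942 protein-coding genes were kept by GENCODE 44.

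log2(TPM + 1) of all libraries entered 1 limma 3.58.1 fit (R 4.3.3; trended variances, 4 residual degrees of freedom), tested on simulated data. DESeq2, used by the authors, was not run, since the tables hold no counts. An exact two-sided permutation test of 1 gene could not go below p = 0.33 with 2 libraries a group. Called genes of each list are named, at most 4 per list and comparison. A called gene of the interferon list is not reported here. Promoters came from a RefSeq table, and other steps used Python 3.11.15. The 10 genes and all lists were chosen with earlier results of these data known.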

Additional observations from a re-analysis of the deposited data

Results flagged for a closer look

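For 3 checkpoint genes the knockdown changed expression by different amounts in the 2 backgrounds, by a test of the difference itself (limma interaction term, Benjamini-Hochberg over all tested genes, 2 libraries in each of 4 groups). For TNFRSF14 the log2 difference was 2.95 with an adjusted p of 0.00278, and mean TPM was 0.429 ± 0.306 under shScr and 11.1 ± 0.584 (SD, n = 2) under shUHRF1 in UF1hypo, against 0 to 0.396 TPM in the HCT116 libraries. TNFRSF14 passed the filter on low values through UF1hypo shUHRF1 alone, so its inclusion already required a difference. For LGALS9 the log2 difference was 2.88 with an adjusted p of 0.0196. For NT5E it was 1.54 with an adjusted p of 0.039, and TPM was lower in both HCT116 knockdown libraries, while the UF1hypo groups overlapped.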

How the results depend on the processing

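Over 26 results on single genes, 299 of 343 values under alternative settings kept their direction and side of the thresholds. Of the others 11 reversed, 27 lost the call and 6 gained it, and the cause was not tested. The 299 include results that were not called, and only a called result could lose its call. CD274 on knockdown in UF1hypo lost it in 5 of 14 settings, while LGALS9 and TNFRSF14 there kept it in all 14. In the difference NT5E lost it in 10 of 15, LGALS9 in 5 and TNFRSF14 in 1. Between the lines LGALS9 lost it in 6 of 12. Among all genes the knockdown in HCT116 called 9 genes, 30 with a pseudocount of 0.1, 2 with no TPM filter, 89 with the 4 libraries alone, 3 with median-ratio scaling, 69 with GC content bins, 16 with coverage in place of TPM and 1 with the replicate block, and 0 to 0 without a library; among the checkpoint genes 1 was called with the 4 libraries alone and 1 with GC content bins. The knockdown in UF1hypo called 1162 genes, 563 with the 4 libraries alone, 748 with FPKM and 655 to 2255 without a library. The difference called 702 genes, 448 with a pseudocount of 0.1 and 171 to 2142 without a library, and among the checkpoint genes 3, 0 with that pseudocount and 1 to 5 without a library. UF1hypo against HCT116 with shScr called 455 genes and 149 to 190 without a library, and among the checkpoint genes 1, 0 with a pseudocount of 0.1, 0 with no TPM filter and 0 to 0 without a library. Reversed log2 fold changes were found for LGALS9 on knockdown in HCT116, at -0.71 to 0.48 without a library, and, on knockdown in UF1hypo, for NT5E at -0.21 to 0.47 and CD47 at -0.957 to 0.042 without a library. The difference for CD47 became 0.014 with GC content bins and was -0.65 to 0.35 without a library. Between the lines CD276 became -0.14 with GC content bins and was -0.19 to 0.25 without a library, CD274 became 0.15 with GC content bins and 0.079 with coverage and was -0.21 to 0.011 without a library, and CD47 was -0.0063 to 0.17 without a library.

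The labels do not say whether replicate numbers pair the libraries, and same-numbered deviations correlated at -0.402 to 0.0547 across genes. The -0.402 was between the UF1hypo groups, whose replicate differences ran with GC content in opposite directions. A pairing could therefore not be judged from these correlations. With the replicate block, 3 checkpoint genes were called on knockdown in UF1hypo and 2 in the difference, and a crossed pairing in UF1hypo, chosen after seeing the data as was coverage, also gave 3. Depth per gene is unknown, so the values of PDCD1LG2, VTCN1 and, before knockdown, TNFRSF14 rest on an unknown number of reads.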
